A study of Mus musculus with 9 samples.

Results

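Receptor binding was described at the genes of 10 Krüppel-like factors (KLFs), Klf2, Klf3, Klf4, Klf5, Klf6, Klf7, Klf9, Klf10, Klf13 and Klf15, in the mouse neuroblastoma line N2A. A peak belonged to a gene when its summit lay in the gene body or within 20 kb of it, which gave 33 of the 30508 peaks in the 6 deposited lists. The cells, kept in charcoal-stripped serum, were transiently transfected with EGFP-GR and mCherry-MR together, and chromatin was taken after vehicle, after 100 nM corticosterone (CORT) for 20 minutes, or after the same CORT treatment followed by 2 washes and 40 minutes without steroid (washout). Each receptor was precipitated through its tag in ChIP-nexus, in which an exonuclease trims the DNA up to the crosslinked protein. The sites are therefore those of the transfected, tagged receptors. According to the study, N2A cells make no MR and some GR of their own, which activated a reporter gene only minimally. The study's methods name rat receptors where the deposited description names mouse. The authors pooled the 3 replicates of a condition before calling peaks, so each condition is 1 list, no value has a replicate error, and no test between conditions was made.

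KLFs are zinc-finger transcription factors that bind GC-rich and CACCC sequences, and some activate while others repress. Klf9 is induced by glucocorticoids and thyroid hormone in neurons, and Klf15 is a glucocorticoid target in muscle and liver. GR and MR bind the same glucocorticoid response element (GRE), an inverted repeat with a spacer.

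At the KLF genes receptor peaks appeared with CORT, and after washout only MR peaks were listed. No GR or MR peak of the vehicle lists lay at any of the 10 genes. After CORT there were 11 GR peaks at 6 genes (Klf2, Klf3, Klf6, Klf7, Klf9 and Klf10) and 17 MR peaks at 5 of these, all but Klf2. After washout there were 0 GR peaks and 5 MR peaks, at Klf6, Klf7, Klf9 and Klf10. Klf4, Klf5, Klf13 and Klf15 had no peak in any list. Where a list holds no peak, none could be detected with the reads and the cutoff behind it, which does not show that the receptor was absent.

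Among 21938 protein-coding genes on chromosomes 1 to 19, X and Y, the same rule found GR after CORT at 26.3% and MR after CORT at 30.2%. The KLF shares were 60% for GR (95% Wilson interval 31.3% to 83.2%) and 50% for MR (23.7% to 76.3%). For MR washout the share was 4 of 10 genes (40%, 16.8% to 68.7%) against 14.3% of all genes. The vehicle lists reached 0.109% of genes for each receptor and the GR washout list 1.02%, so the 0 of 10 KLF genes stood beside backgrounds that were themselves close to 0. The intervals cover counting error over 10 genes only, the genes were chosen with earlier results of these data known, and longer genes collect more peaks. Both receptors were listed after CORT at 5 of the 10 genes (21.7% of all genes), and 1 or the other at 6 (34.8%). Klf2 was the only gene with GR alone (4.61% of all genes), and 0 had MR alone (8.52%). Per 100 kb, the KLF spans held 1.67 GR and 2.59 MR peaks after CORT, and the spans of all protein-coding genes held 0.586 and 0.80.

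**Figure D1:**
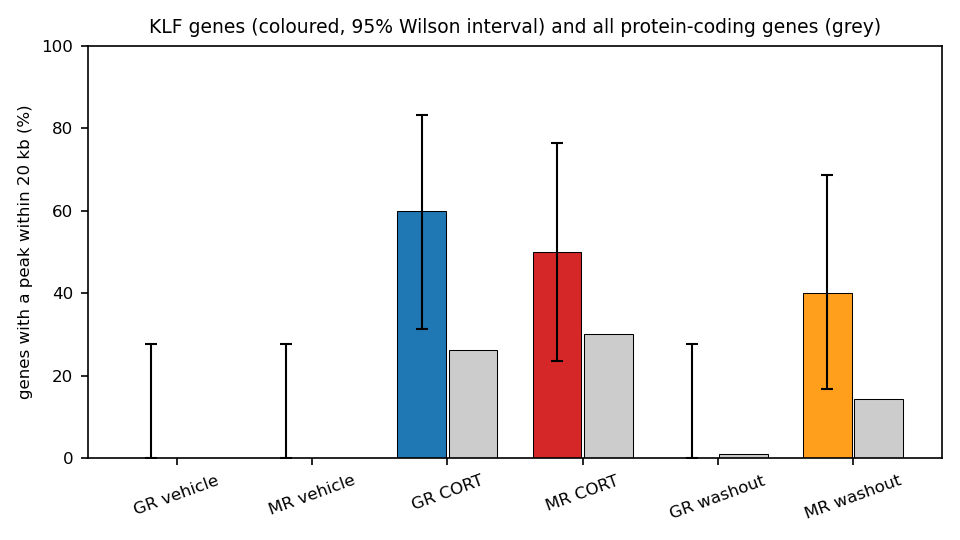
Percent of genes with a peak summit in the gene or within 20 kb (y axis) in each of the 6 lists, for the 10 KLF genes (coloured bars, 95% Wilson intervals) and for 21938 protein-coding genes (grey bars). The KLF bars stand at 60% for GR CORT, 50% for MR CORT and 40% for MR washout, and at 0 in the other lists.

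The sequences at the strongest peaks are shown here so that the letters at each site can be set beside the GRE. Whether binding followed the number of mismatches was not tested. The GRE searched was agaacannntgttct, 15 bases with 12 fixed positions, and it reads the same on both strands. Each line gives the best match within 100 bp of the summit in capitals, with 15 bases to each side, read from the GRCm38 (mm10) genome on the strand of the gene.
Klf9, −6.1 kb, strongest MR washout peak, 2 mismatches, chr19:23135077-23135121, plus strand: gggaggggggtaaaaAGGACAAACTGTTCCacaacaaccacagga
Klf9, −5.3 kb, strongest GR and MR CORT peaks, 3 mismatches, chr19:23135945-23135989, plus strand: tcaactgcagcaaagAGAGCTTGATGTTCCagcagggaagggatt
Klf6, −15.7 kb, strongest peak of GR and MR after CORT and of MR after washout, 4 mismatches, chr13:5845783-5845827, plus strand: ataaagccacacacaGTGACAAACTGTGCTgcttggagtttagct
Klf7, +4.2 kb, strongest peak of GR and MR after CORT and of MR after washout, 4 mismatches, chr1:64118136-64118180, minus strand: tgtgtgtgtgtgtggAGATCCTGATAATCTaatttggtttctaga
Klf10, strongest GR CORT peak (summit +20.2 kb) and strongest MR CORT peak (summit 136 bp from it), 4 mismatches, chr15:38280577-38280621, minus strand: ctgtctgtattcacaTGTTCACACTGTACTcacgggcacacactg
Klf10, +20.0 kb, strongest MR washout peak, 5 mismatches, chr15:38280640-38280684, minus strand: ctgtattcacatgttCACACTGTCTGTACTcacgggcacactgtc
Klf3, +4.8 kb, GR CORT peak, 3 mismatches, chr5:64808185-64808229, plus strand: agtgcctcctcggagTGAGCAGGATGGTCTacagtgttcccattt
Klf3, −0.51 kb, strongest MR CORT peak, 5 mismatches, chr5:64802854-64802898, plus strand: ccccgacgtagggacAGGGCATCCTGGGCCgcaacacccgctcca
Klf2, −10.6 kb, GR CORT peak, 5 mismatches, chr8:72308474-72308518, plus strand: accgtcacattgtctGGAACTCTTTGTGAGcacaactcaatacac

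The other matches with at most 2 mismatches all lay within 100 bp of an MR CORT summit, and they were chosen after their values were seen. Not every match shown lies in its peak. The match at +77.3 kb of Klf7 is outside its peak, as is the Klf3 match outside the GR peak, the Klf7 match at +4.2 kb outside both MR peaks, the first Klf10 match outside the GR peak and the other Klf10 match outside the MR washout peak.
Klf6, −16.1 kb, 2 mismatches, chr13:5845309-5845353, plus strand: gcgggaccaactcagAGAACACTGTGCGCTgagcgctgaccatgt
Klf7, +31.3 kb, 2 mismatches, chr1:64090959-64091003, minus strand: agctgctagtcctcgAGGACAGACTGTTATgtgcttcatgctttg
Klf7, +77.3 kb, 2 mismatches, chr1:64044933-64044977, minus strand: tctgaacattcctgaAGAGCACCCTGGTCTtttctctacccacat

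Klf9 (ENSMUSG00000033863, chromosome 19, 23141226 to 23168134, plus strand) had 2 upstream sites, 869 bp apart, and none in the gene body. At the site 5.25 kb upstream, the GR CORT peak spanned 23135926 to 23136039, with a −log10 p of 12.8. The MR CORT peak spanned 23135937 to 23136020, with a −log10 p of 18.0, and the summits were 6 bp apart. The GR peak ranked 1660 of 10602 (15.7%) and was the strongest GR peak at any of the 10 genes, and the MR peak ranked 1060 of 14638 (7.24%). Here −log10 p is the significance of a peak against input, which grows with sequencing depth, so it ranks peaks within a list and is not compared between lists, and neither are the ranks. Many peaks of a list have the same −log10 p and all take the best rank of their tie. The KLF peaks shared theirs with other peaks in ties of 7 to 1187 peaks. No washout peak of either receptor overlapped this site.

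The site 6.12 kb upstream of Klf9 was the weaker of the pair in the MR CORT list and the only one of them in the MR washout list. The MR CORT peak there (23135100 to 23135177) was among the weakest of its list, with a −log10 p of 5.20 and a rank of 14047 (96.0%), and no GR peak was listed. The MR washout peak (23135012 to 23135146) ranked 424 of 4885 (8.68%), with a −log10 p of 17.8. It was the strongest MR washout peak at the KLF genes, with its summit 1 bp from that of the CORT peak.

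**Figure D2:**
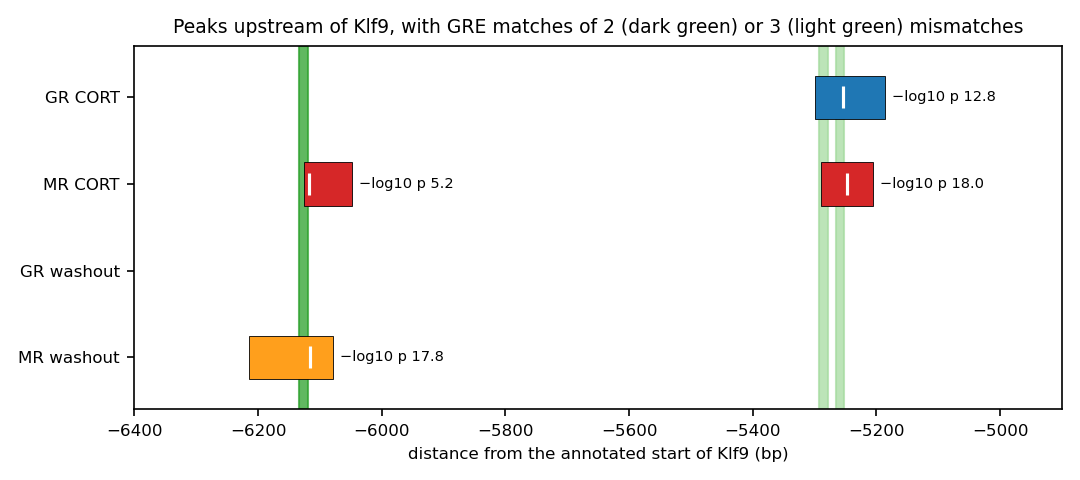
Peaks upstream of Klf9 as bars from start to end along the distance from the annotated gene start in bp (x axis), 1 row for each CORT and washout list, with the summit as a white line and the −log10 p beside it. Green bands are GRE matches with 2 (dark) or 3 (light) mismatches, and the 2 sites hold MR CORT peaks of −log10 p 5.2 and 18.0, a GR CORT peak at the nearer site and an MR washout peak at the farther site.

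The GRE matches of the Klf9 sites also differed. The MR washout peak holds 1 match, of which the MR CORT peak at that site covers only the last bases. It has the differences A3G and T15C from the GRE, counted from 1 at the 5′ end of the match with the GRE base first, and its centre lies 11 bp from the summit. The GR CORT peak holds 2 matches whose starts are 27 bp apart, each with 3 mismatches, and the one nearest to the summit differs by A4G, A6T and T15C. Both peaks are shown whole, on the plus strand, with the GRE matches in capitals.
Klf9, GR CORT peak, chr19:23135926-23136039: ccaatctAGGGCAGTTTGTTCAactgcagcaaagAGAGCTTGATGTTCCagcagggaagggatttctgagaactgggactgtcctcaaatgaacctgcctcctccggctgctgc
Klf9, MR washout peak, chr19:23135012-23135146: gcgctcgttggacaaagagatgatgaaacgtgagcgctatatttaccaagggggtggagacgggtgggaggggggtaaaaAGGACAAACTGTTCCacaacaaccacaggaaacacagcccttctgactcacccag
The AP-1 motif TGACTCA, searched on both strands, lay within 100 bp of the −6.1 kb summit and not of the −5.25 kb summit.

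Klf7, which promotes axon growth, had the most peaks, with 4 GR and 7 MR peaks after CORT and 1 MR peak after washout. It is also the longest of the genes (ENSMUSG00000025959, chromosome 1, 64029447 to 64122282, minus strand, 92.8 kb), and it held 41.2% of the MR CORT peaks in 20.2% of the summed spans. Per 100 kb, however, its 5.27 MR CORT peaks were fewer than the 8.18 of Klf6. Its 3.01 GR CORT peaks per 100 kb were fewer than the 6.09 of Klf10. The strongest site of Klf7 was in the intron 4.14 to 4.22 kb from the annotated start. There the MR CORT peak (64118002 to 64118111) ranked 823 (5.62%) with a −log10 p of 19.6, the highest of any MR CORT peak at the KLF genes. The GR CORT peak had 9.29 and ranked 4643 (43.8%), and the MR washout peak had 11.8 and ranked 1295 (26.5%).

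A group of 4 MR CORT peaks lay 31.3 to 33.8 kb into Klf7, all intronic and 2460 bp from the first summit to the last. Their −log10 p ran from 9.17 to 14.9. No GR peak and no washout peak overlapped them. Over the whole MR CORT list, 47.6% of peaks were overlapped by a GR CORT peak and 24.6% by an MR washout peak. Of the 4 GR CORT peaks at Klf7, those at +4.1 kb and 101 kb overlapped an MR CORT peak, and those at 68.6 and 81.1 kb did not. The shared site at 101 kb lies downstream of the gene and was weak for MR, with a −log10 p of 5.20 (rank 14047), and 7.38 for GR (rank 7262). Of 21938 protein-coding genes, 1.89% had at least 7 MR CORT peaks. Stac3 had the same 6 counts as Klf7, and Nrp1 and Tmem108 came next with 8 MR CORT peaks in place of 7 (Euclidean distance of log2(count + 1) over the 6 lists, 0 and 0.17).

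Klf6, a growth regulator that also supports axon growth, had 1 GR and 4 MR peaks after CORT and 1 MR peak after washout (ENSMUSG00000000078, chromosome 13, 5861482 to 5870394, plus strand). The site 15.7 kb upstream carried all 3 kinds. The MR CORT peak (5845777 to 5845824) ranked 1385 (9.46%), with a −log10 p of 16.5. The GR CORT peak had 8.66 and ranked 5190 (49.0%), in a tie of 1167 peaks, and the MR washout peak had 13.2 and ranked 932 (19.1%). The summits of GR and MR after CORT were 9 bp apart.

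Another MR CORT peak lay 461 bp farther upstream of Klf6 (5845314 to 5845356), with a −log10 p of 11.98, and no GR or washout peak overlapped it. This is the site with 2 mismatches to the GRE, both of them in the second arm (T12C and T13G), 7 bp from the summit. The neighbour that kept an MR peak after washout had no match closer than 4 mismatches. The intronic MR peak 2.33 kb from the start of Klf6 had a −log10 p of 10.6, and the downstream one at 12.6 kb had 6.28. The intronic summit also lay 868 bp upstream of another annotated Klf6 start. AP-1 matches lay within 100 bp of the summit at 3 of the 4 MR CORT peaks of Klf6.

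**Figure D3:**
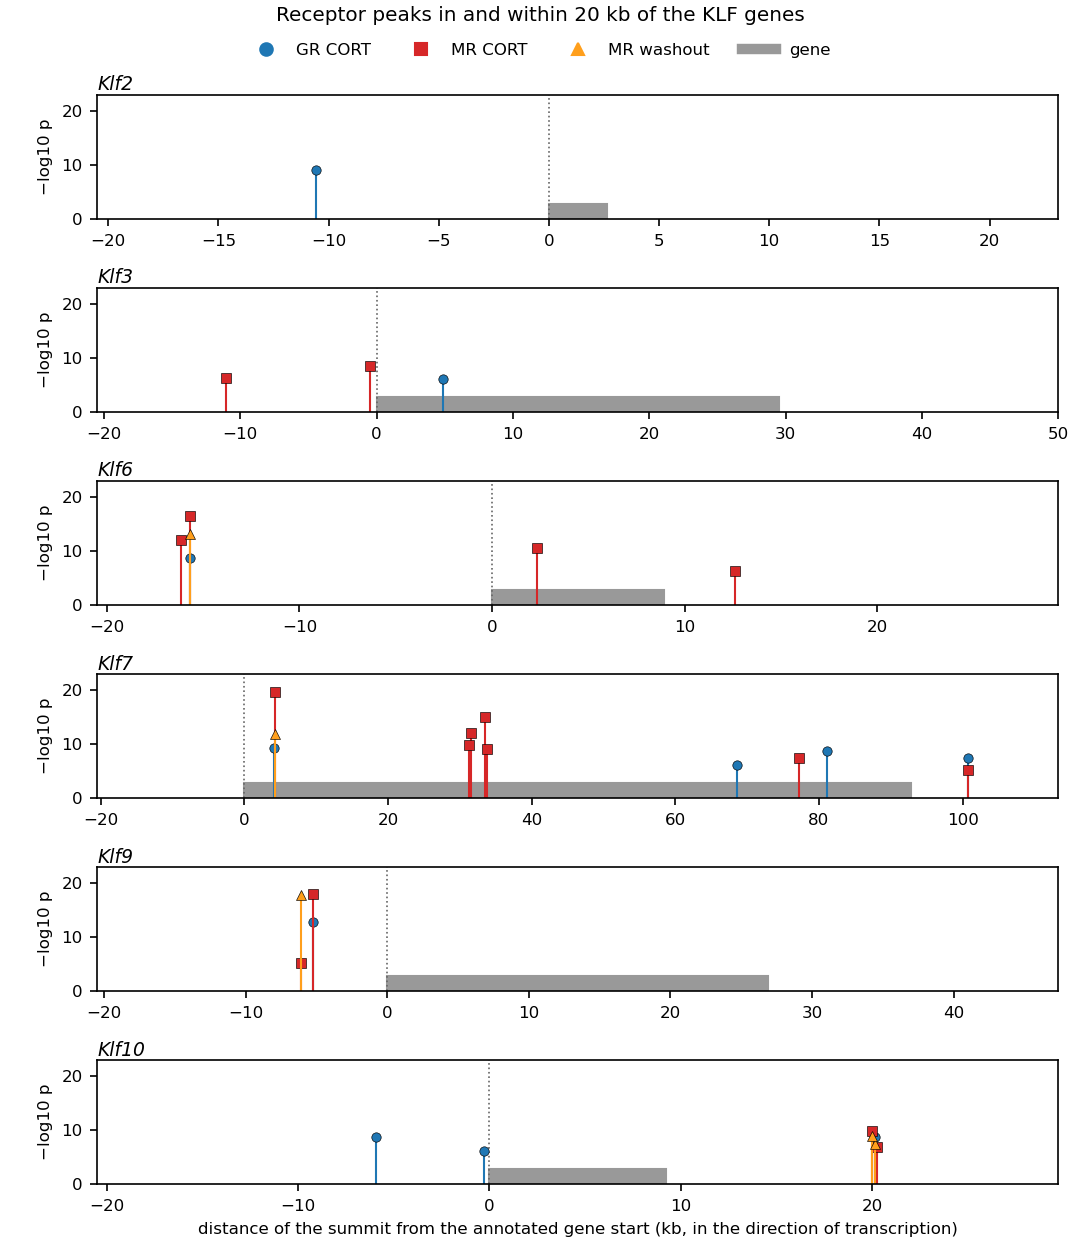
Summits of the GR CORT (circles), MR CORT (squares) and MR washout (triangles) peaks at the 6 KLF genes that had any, with −log10 p (y axis) against distance from the annotated gene start in kb (x axis, in the direction of transcription), and the gene as a grey bar. Klf7 carries 7 MR CORT peaks, and at Klf9 the MR CORT and MR washout peaks are strongest at different sites, 5.25 and 6.12 kb upstream.

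Klf10, an early gene of TGF-beta signalling that represses transcription, was 1 of 2 genes with more GR than MR peaks after CORT (3 and 2; ENSMUSG00000037465, chromosome 15, 38291463 to 38300706, minus strand). The GR peaks 262 and 5901 bp upstream had a −log10 p of 6.15 (rank 9320) and 8.66 (rank 5190) and no MR partner. The site about 20 kb from the start, 10740 to 11025 bp past the end of the gene, carried both receptors. It held a GR CORT peak of 8.71 (rank 5169), an MR CORT peak of 9.82 that was 231 bp wide (38280527 to 38280757, rank 5907), and 2 MR washout peaks within it of 7.47 and 8.95 (ranks 3898 and 2903). A further MR CORT peak beside it had 6.94 and no washout peak.

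Klf3, a repressor that recruits CtBP, had 1 GR and 2 MR peaks after CORT and no site of both (ENSMUSG00000029178, chromosome 5, 64803388 to 64832901, plus strand). The MR peaks lay 514 bp and 11.1 kb upstream with −log10 p of 8.60 and 6.28, and the intronic GR peak 4.84 kb from the start had 6.15. All 3 were in the weaker part of their lists, ranking from 55.3% to 87.9%. Klf2, which holds endothelial cells quiescent (ENSMUSG00000055148, chromosome 8, 72319033 to 72321656, plus strand), had a single GR peak 10.6 kb upstream, with a −log10 p of 8.98 and a rank of 4825 (45.5%). That peak was the only one of the 33 whose nearest protein-coding start belonged to another gene, Gm10282.

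**Figure D4:**
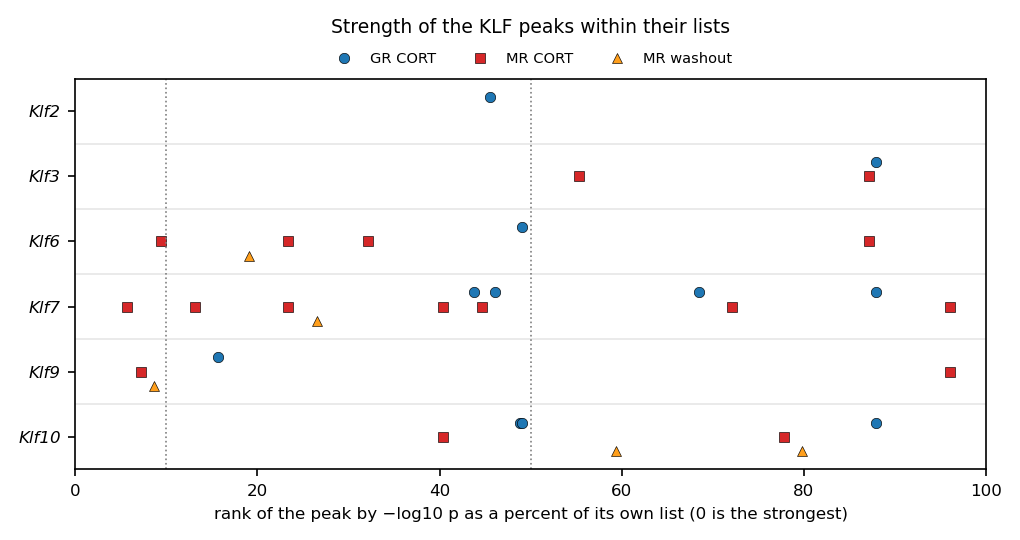
Rank of each KLF peak by −log10 p as a percent of its own list (x axis, 0 is the strongest peak, ties at their best rank), by gene (y axis), for GR CORT (circles), MR CORT (squares) and MR washout (triangles). Dotted lines mark 10% and 50%, and the peaks left of 10% are the MR CORT peaks of Klf6, Klf7 and Klf9 and the MR washout peak of Klf9.

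With ties at their best rank, 0 of the 11 GR CORT peaks at the KLF genes were in the top 10% of their list. Of the 17 MR CORT peaks, 3 were in the top 10% of theirs. By construction that part holds about 10% of any list, and the GR and MR ranks are not compared. The tie of 230 peaks that holds the Klf6 peak runs past the 10% line. The KLF peaks had a median −log10 p of 8.66 in the GR CORT list, 9.82 in the MR CORT list and 11.8 in the MR washout list, beside medians of 8.66, 9.17 and 9.57 over all peaks of those lists.

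GR and MR CORT peaks at the KLF genes met at 5 of 23 distinct sites, while 6 held GR alone and 12 MR alone. The MR CORT list is the longer one, with 14638 peaks against 10602. Cut to its strongest 10602, it held 12 peaks at the KLF genes in place of 17, beside the 11 of GR. Counting a shared base as overlap, MR met 5 of the 11 GR CORT peaks (45.5%, 21.3% to 72.0%), against 61.0% of the whole list. Of the MR CORT peaks, 5 of 17 (29.4%, 13.3% to 53.1%) overlapped a GR CORT peak, against 47.6%. The MR interval includes the value of the whole list, as does the GR interval, and peaks near a gene are not independent.

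After washout, MR peaks overlapped 4 of the 17 MR CORT peaks (23.5%, 9.56% to 47.3%), against 24.6% of the whole list, and 3 of the 11 GR CORT peaks (27.3%, 9.75% to 56.6%), against 28.2%. All 5 MR washout peaks overlapped an MR CORT peak (100%, 56.6% to 100%), as did 75.7% of the whole MR washout list, a value inside that interval. The MR CORT peaks that were overlapped had −log10 p from 5.20 to 19.6 and the 13 others from 5.20 to 18.0. By gene, 4 of the 5 KLF genes with an MR CORT peak also had an MR washout peak, where 43.3% of the 6630 protein-coding genes with an MR CORT peak did. That share rests on 5 genes and was given no interval, and a gene with more MR CORT peaks has more that could remain. A GR washout peak overlapped 0 of the 11 GR CORT peaks (0 to 25.9%) and 2.13% of the whole list.

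A GRE with no more than 3 mismatches was found near the summit (100 bp to each side) for 3 of 11 GR CORT peaks (27.3%, 9.75% to 56.6%) and for 6 of 17 MR CORT peaks (35.3%, 17.3% to 58.7%). Over the whole lists the shares were 37.7% and 39.9%. With at most 2 mismatches they were 0 of 11 and 4 of 17 (23.5%, 9.56% to 47.3%), against 10.5% and 11.5%. The AP-1 motif lay within 100 bp of the summit for 4 of 17 MR CORT peaks (23.5%, 9.56% to 47.3%), 3 at Klf6 and 1 at Klf9, against 7.81% of the list, and for 1 of 11 GR CORT peaks (9.09%), against 8.73%. Of the MR washout summits, 2 of 5 had it (40%, 11.8% to 76.9%), at Klf6 and Klf9, against 9.2%. These 2 summits lay 11 and 1 bp from MR CORT summits already counted, and the GR CORT peak was at the same Klf6 site. The AP-1 shares of the 3 lists are therefore not separate observations. A GRE with no more than 3 mismatches lay near 1 of the 5 MR washout summits (20%, 3.62% to 62.4%), against 45.5% of the list. A match describes the letters only.

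The remaining genes were those with no peak within 20 kb. Klf4 and Klf5 regulate pluripotent and epithelial cells, and Klf13 is closely related to Klf9. The nearest CORT peak lay 125 kb from Klf4 for GR and 295 kb for MR. From Klf13 it lay 435 kb for GR and 901 kb for MR, and from Klf15 442 kb for GR. The MR CORT peak nearest to Klf15, at 41.9 kb with a −log10 p of 10.998, had its nearest protein-coding start at Cfap100. Just inside the limit of 20 kb were the Klf6 peaks at 15.7 and 16.1 kb. Among those outside it were an MR CORT peak 29.2 kb upstream of Klf6 (−log10 p 9.04) and a site 33.3 kb downstream of Klf5. A GR CORT peak 35 kb downstream of Klf7 (−log10 p 7.38) had a GRE match with 1 mismatch near its summit. No peak inside the limit had a match that close, so the GRE counts depend on the limit. The Klf5 site held GR (8.66) and MR (13.4) peaks after CORT and an MR peak after washout (16.5), and the nearest protein-coding start was that of Klf5. A site 50.6 kb upstream of Klf2, with the nearest start at Ap1m1, held far stronger peaks, with a −log10 p of 37.0 for MR after CORT (rank 57), 28.7 for GR after CORT (rank 89) and 24.5 for MR after washout.

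Border pairs, the positions where the exonuclease stopped on opposite strands as called by MACE, gave little at these genes. An MR CORT border pair overlapped 2 of the 17 MR CORT peaks, at Klf6 (−15.7 kb) and Klf10 (+20.0 kb), and 10.4% of the whole list. The deposited GR CORT list held 139 pairs, given as positions alone, which is fewer than the study counts, so nothing is read from it about these genes. The GR vehicle and washout lists had no pair in the span of any KLF gene. Input border pairs overlapped none of the 33 peaks. In the spans there was 1 input pair at Klf2 and 2 at Klf13.

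The other 16 genes of the family (Klf1, Klf8, Klf11, Klf12, Klf14, Klf16, Klf17 and Sp1 to Sp9) had no peak in the vehicle lists, and 9 of them had none after CORT. With CORT, GR was listed at 4 of these genes (6 distinct peaks) and MR at 7 (14 distinct peaks). Sp2 and Sp6 are neighbours on chromosome 11, and 2 GR CORT, 2 MR CORT and 2 MR washout peaks lay within 20 kb of both. Those 2 MR washout peaks were the only ones at the 16 genes, and the single GR washout peak was at Sp2. Of all protein-coding genes, 26.3% had a GR CORT peak, 30.2% an MR CORT peak and 34.8% a peak of 1 or the other. An MR washout peak was found at 14.3% of them and a GR washout peak at 1.02%.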

How the data were processed

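Peak lists of GR and MR after each of 3 treatments (6 lists) and border pairs of both receptors and of input (9 lists) were used. The authors aligned reads to mm10 with Bowtie2, removed duplicates by random barcode, called peaks with MACS2 2.1.1.20160309 on combined replicates against input, and called border pairs with MACE. The deposited peak tables hold −log10 p, a score (the whole part of 10 times −log10 q) headed as a length, −log10 q headed as fold enrichment, and a summit offset headed as −log10 q. Of the deposited border pairs only positions were used. The deposited p-values, which 8 of the 9 border lists carry and the GR CORT list does not, were left aside. Fold enrichment is not used here. Starts were read as BED positions. The peak files hold no read counts. The study gives totals of mapped reads as ranges over its treatments, not per list, so no depth was attached to a value.

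Genes were those of GENCODE M21, and sequence was GRCm38.p6. The 10 genes, the family list and the measures were chosen with earlier results of these data known. Named genes were all 10, the fixed family list, the nearest other gene to a peak, and the 3 genes with counts most like those of Klf7. Sequences shown follow the strongest peaks, with those of at most 2 mismatches added after seeing the values. Overlap was at least 1 bp. Where a share has an interval, it is a 95% Wilson interval. Overlap, motif counts and intervals were tested on simulated data. Python 3.11.15, numpy 2.4.6, pandas 2.3.3, pysam 0.24.0, samtools 1.23.1 and matplotlib 3.10.9 were used.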

Additional observations from a re-analysis of the deposited data

How the results depend on the processing

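Of 96 alternative values for 18 counts and percentages, 77 stayed within the interval of the value reported, or within 1.5 times a count. The other 19 did not. The 77 are no measure of stability, because some were fixed in advance. A count of 0 cannot change with the 5 kb limit or a −log10 q of at least 5, which only remove peaks. Cutting both CORT lists to the same length leaves GR, the shorter list, unchanged. Every count above 0 of peaks or genes moved under at least 1 alternative. With peaks within 5 kb of the genes there were 5 GR CORT peaks at 3 genes, 9 MR CORT peaks at 3 genes and 1 MR washout peak at 1 gene, and 20.0% of GR and 11.1% of MR CORT peaks overlapped the other receptor. Giving each peak to the nearest protein-coding start, with no limit on distance, gave 23 GR CORT, 35 MR CORT and 9 MR washout peaks. A −log10 q of at least 5 left 2 GR CORT peaks at 2 genes, both overlapped by MR (100%), 10 MR CORT peaks and 3 MR washout peaks. The share of GR CORT peaks with a GRE was 0% at no more than 2 mismatches, against 10.5% of the whole list. With up to 4 mismatches it was 63.6% for GR CORT peaks and 82.4% for MR CORT peaks. The whole lists had 79% and 82.1% with up to 4, so such a loose match is common to most peaks. The counts after vehicle and of GR after washout stayed 0 within 50 kb and by nearest start, the only alternatives that could have raised them. Those lists hold few peaks. No paired analysis was possible because each condition is 1 pooled list, and leaving out a replicate was not possible for the same reason.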
